A study of Mus musculus with 6 samples.

Results

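The interferon and innate antiviral genes described here are 43 named genes, of which 41 were measured by a probe set with a single gene symbol among 18194 such genes on the array. Isg15 and Ifi44 were not analysed here. The members were listed by name, and each gene was read from its brightest probe set, the one with the highest mean over the 6 arrays, a choice that does not use the group labels. RNA came from branchial arch 1, the embryonic tissue that forms the jaws, of mouse embryos at embryonic day 11.5, with 1 arch taken per embryo and each array labelled a biological replicate. The 3 embryos labelled mutant were Wnt1Cre Ezh2lox/lox, and the 3 embryos labelled control were Ezh2lox/lox, so that both groups carried the conditional alleles of Ezh2 and the Cre transgene was the labelled difference. Cre driven by Wnt1 is active in the neural crest lineage, which leaves the epithelium, muscle core, vessels and blood cells of the arch with intact Ezh2. All values are log2 signals as the authors processed them, each change is labelled mutant minus labelled control on that scale, and errors of group means are SD with n = 3 arrays.

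Type I interferons act through the receptor chains Ifnar1 and Ifnar2, and the kinases behind them activate a complex that holds Stat2 and Irf9. This complex binds the interferon-stimulated response element (ISRE) at genes whose products bind viral RNA, block viral entry or budding, edit or degrade nucleic acids, or present antigen. Upstream, sensors of nucleic acids such as cGAS for DNA and the RIG-I-like helicases for RNA start interferon production through Irf3 and Irf7. Ezh2 is the methyltransferase of the Polycomb complex PRC2, which keeps many developmental genes silent by methylating histone H3.

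The labels need a caution that touches every direction given here. The targeted gene Ezh2 read 11.66 ± 0.01 in labelled-mutant and 11.63 ± 0.15 in labelled-control arches, a change of 0.03 that did not pass (limma, Benjamini-Hochberg adjusted p = 0.906), and whether its probe set lies in the deleted part was not determined here. The classical PRC2 target Hoxa9 read 4.21 ± 0.36 in labelled-mutant and 11.28 ± 0.37 in labelled-control arches, and Cdkn2a read 3.78 ± 0.20 and 6.99 ± 0.50 in the same order, which goes against the direction known for loss of Ezh2. The X-inactivation RNA Xist read 13.03 ± 0.10 in labelled-mutant and 5.62 ± 0.15 in labelled-control arches, and the Y-linked gene Kdm5d read 2.95 ± 0.13 and 9.18 ± 0.06 in the same order, so that sex pattern and label cannot be told apart. If the 2 labels were exchanged in the deposit, which these data do not settle, every direction given here would turn round, and the genes described as lower would be higher. All 43 antiviral genes are autosomal. Of 12 markers of crest-derived arch mesenchyme, 11 lay above the array median on every array and Alx4 below it on every array. Among the 11 was Prrx1, at 12.59 ± 0.06 in labelled-mutant and 12.39 ± 0.16 in labelled-control arches. On every array the 25th percentile of all probe sets was 4.33 and the median 5.81, and signals near the low end hold mostly background.

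A small set of antiviral genes was lower in the labelled-mutant arches, led by the DNA sensor gene Cgas and the ADP-ribosyltransferase gene Parp12. Of the 41 genes, 10 fell, 0 rose and 31 did not pass (limma fitted to all genes, threshold 0.05 on the Benjamini-Hochberg adjusted p), and 13 had an unadjusted p under 0.05. Over all 18194 genes, 4.3% were lower and 1.23% higher by the same rule, and 3405 had an unadjusted p under 0.05. These shares are also the comparison for each count by role below. The 10 were Parp12, Cgas, Shfl, Parp9, Zc3hav1, Psmb9, Trim25, Dtx3l, Usp18 and Tap1, and 4 of them changed at least 2-fold, where 1.2% of all genes fell by as much and passed. The median change was -0.12 over the 41 genes and 0.02 over all genes, and 31 of the 41 changes were negative. The arrays of the 2 groups did not overlap for 14 of the 41 genes, against 24.9% of all genes. Every gene of the array that passed, 1007 in all, had groups that did not overlap. Lack of overlap therefore adds nothing to the call of the 10 genes that fell. The genes were listed with results of this comparison known, so these shares describe the list and carry no test of it. With arches of mixed cell types, fewer cells of a type and less RNA per cell cannot be told apart.

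**Figure D1:**
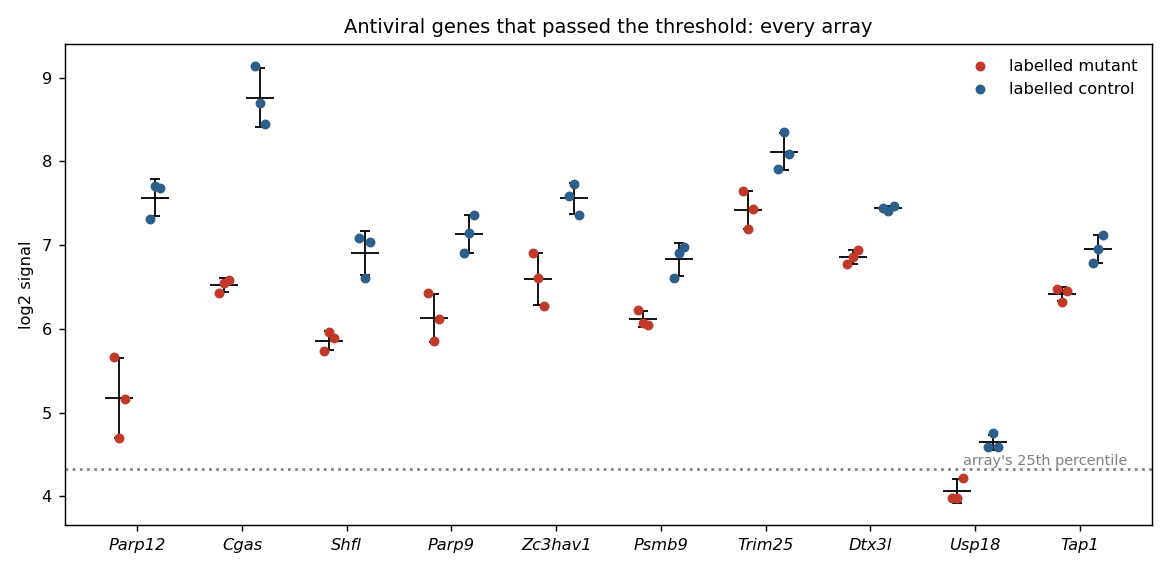
Log2 signal of the 10 antiviral genes that passed the threshold, on each of the 3 labelled-mutant arrays (red, left) and 3 labelled-control arrays (blue, right), with black bars for mean and SD. The groups do not overlap for any of the 10, which holds for every gene of the array that passed. Usp18 in labelled-mutant arches lies under the array's 25th percentile of 4.33 (dotted line).

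Among the sensors, Cgas alone passed. It encodes the enzyme that binds DNA in the cytosol and makes the messenger cGAMP, which activates Sting1. Cgas read 6.43, 6.55 and 6.59 in labelled-mutant arches, against 9.14, 8.70 and 8.45 in labelled-control arches. All 3 labelled-control arrays lay above all labelled-mutant arrays by more than the spread within either group. Cgas fell by 2.24 (SE 0.16, 4.73-fold; limma, Benjamini-Hochberg adjusted p = 1.40e-04), and by size it was number 44 of the 783 genes that fell. The second probe set of Cgas read 6.48 on average in labelled-mutant and 8.05 in labelled-control arches, a change of -1.56.

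The sensors of RNA did not pass. Ifih1 (MDA5, a sensor of long double-stranded RNA) read 5.43, 5.37 and 5.84 in labelled-mutant arches, against 5.72, 5.78 and 5.71 in labelled-control arches. The groups overlapped. Dhx58 (LGP2, a regulator of these helicases) changed by -0.12 and Zbp1 (a sensor of Z-form nucleic acids that starts cell death) by 0.11. Eif2ak2 (PKR, a kinase that halts translation on double-stranded RNA) changed by 0.08, and Adar, which edits adenosines in double-stranded RNA, by 0.10. Adjusted p for these 5 genes lay between 0.455 for Ifih1 and 0.754 for Eif2ak2.

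Of the 4 genes of the ADP-ribosylation group 3 fell, and Parp12 had the largest change of all 41 genes. Parp12, a mono-ADP-ribosyltransferase with zinc fingers that restrains viral replication, read 5.66, 4.70 and 5.16 in labelled-mutant arches, against 7.31, 7.71 and 7.68 in labelled-control arches. Its labelled-mutant arrays spread more widely than its labelled-control arrays, yet the highest of them lay well below the lowest labelled-control array. Parp12 fell by 2.39 (SE 0.22, 5.25-fold; limma, Benjamini-Hochberg adjusted p = 5.77e-04), number 37 by size of the 783 genes that fell. Parp9 and Dtx3l encode partners in 1 complex, a macrodomain protein of the PARP family and a ubiquitin ligase. Parp9 read 6.43, 5.85 and 6.11 in labelled-mutant arches, against 6.91, 7.14 and 7.36 in labelled-control arches, and fell by 1.01 (SE 0.16; adjusted p = 0.00905). Dtx3l read 6.77, 6.86 and 6.94 in labelled-mutant arches, against 7.44, 7.41 and 7.47 in labelled-control arches. The groups did not overlap, and it fell by 0.58 (SE 0.08; adjusted p = 0.00384). Parp14, a further mono-ADP-ribosyltransferase, read 4.28 ± 0.35 in labelled-mutant and 4.51 ± 0.05 in labelled-control arches, near the array's 25th percentile, and its change of -0.23 did not pass. Its second probe set, also near that percentile, changed the other way by 0.27 (SE 0.08). In the RefSeq annotation Parp14, Dtx3l and Parp9 are neighbours on chromosome 16, and Dtx3l and Parp9 overlap.

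The sequences before the starts of Parp12 and Cgas are shown because these genes had the largest changes, with every CpG dinucleotide in capitals. Both run from 200 bases before the start to the base before it, from RefSeq on GRCm38.p6, chr6:39118350-39118549 (minus strand) for Parp12 and chr9:78443238-78443437 (minus strand) for Cgas.
Parp12: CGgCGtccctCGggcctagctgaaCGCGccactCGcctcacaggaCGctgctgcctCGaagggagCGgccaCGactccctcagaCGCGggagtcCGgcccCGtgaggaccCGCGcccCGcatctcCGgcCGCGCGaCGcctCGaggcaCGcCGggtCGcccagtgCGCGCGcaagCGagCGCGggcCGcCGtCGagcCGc
Cgas: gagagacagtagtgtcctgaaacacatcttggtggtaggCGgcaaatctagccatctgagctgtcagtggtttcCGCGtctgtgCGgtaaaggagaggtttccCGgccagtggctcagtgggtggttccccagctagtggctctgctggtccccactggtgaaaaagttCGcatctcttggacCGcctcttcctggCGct
The Parp12 stretch holds 36 CpG and the Cgas stretch 8.

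Both measured genes of the ISG15 system fell. Isg15 itself, a ubiquitin-like modifier, was not analysed here. Usp18, which removes Isg15 from proteins and dampens signalling at Ifnar2, read 3.98, 3.98 and 4.22 in labelled-mutant arches, against 4.59, 4.75 and 4.59 in labelled-control arches. The labelled-mutant values lie below the array's 25th percentile, where background weighs on the size of a change. Usp18 fell by 0.58 (SE 0.10; limma, Benjamini-Hochberg adjusted p = 0.0101). Without labelled-mutant array 2 it missed the threshold (adjusted p = 0.0527). Trim25, a ubiquitin ligase that acts with the RNA sensor RIG-I, read 7.64, 7.19 and 7.44 in labelled-mutant arches, against 7.91, 8.35 and 8.09 in labelled-control arches. The groups did not overlap, and Trim25 fell by 0.69 (SE 0.14; adjusted p = 0.0266). That call was lost without labelled-control array 2 (adjusted p = 0.0928) or 3 (0.0591), without labelled-mutant array 2 (0.0969) or 3 (0.0982), and with floored signals (0.129).

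Of the 18 antiviral effectors measured, 2 fell, 0 rose and 16 did not pass, where 4.3% of all genes were lower and 1.23% higher. Shfl, which blocks the ribosomal frameshifting that several viruses use, read 5.74, 5.96 and 5.89 in labelled-mutant arches, against 7.08, 6.61 and 7.04 in labelled-control arches. It fell by 1.05 (SE 0.13, 2.07-fold; limma, Benjamini-Hochberg adjusted p = 0.0031), and the groups were separated by more than the spread within them. Zc3hav1 (ZAP, which binds CpG-rich viral RNA and directs its decay) read 6.91, 6.60 and 6.28 in labelled-mutant arches, against 7.58, 7.73 and 7.36 in labelled-control arches, a fall by 0.96 (SE 0.16; adjusted p = 0.0105). It missed the threshold without labelled-control array 2 (adjusted p = 0.0547), with the mean of its probe sets (a change of -0.29, 0.0625) and with floored signals (0.0952). With floored signals Shfl (0.0563) and Parp9 (0.0893) also missed it.

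Of the 16 effectors that did not pass, 4 had groups that did not overlap: Samhd1, Ifitm2, Rtp4 and Mx1. Over the whole array 3515 of the 17187 genes that did not pass had such groups, so the count sets these 4 apart little. Samhd1, which depletes the nucleotides that reverse transcription needs, read 8.96, 9.01 and 9.04 in labelled-mutant arches, against 8.78, 8.48 and 8.68 in labelled-control arches. Its change of 0.36 was the highest of the 41, with an adjusted p of 0.0673 (limma, Benjamini-Hochberg), and 0.0401 without labelled-control array 1. The mean of its 5 probe sets gave a change of 0.16 (adjusted p = 0.3). Its second brightest probe set changed by 0.33, and the dimmer ones by 0.08, 0.04 and 0.0003. Ifitm2, which hinders fusion of viral and cell membranes, read 10.39, 10.27 and 9.94 in labelled-mutant arches, against 10.44, 10.61 and 10.69 in labelled-control arches, a change of -0.38 (adjusted p = 0.142). Its relatives on chromosome 7 changed by -0.47 for Ifitm1 and -0.07 for Ifitm3, and signal of such closely related paralogs may be shared between probe sets. Rtp4 changed by -0.42 and Mx1, a dynamin-like GTPase, by -0.13.

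The other effectors did not pass in either direction. Ifit1, which binds viral RNA caps, read 4.19, 4.04 and 4.27 in labelled-mutant arches, against 4.25, 4.09 and 4.18 in labelled-control arches. All 6 values lie below the array's 25th percentile, as do those of Oasl2 and Mx1, so that small changes of these 3 genes could not be seen. Rsad2 (viperin, which makes a chain-terminating nucleotide) read 6.32, 6.29 and 6.36 in labelled-mutant arches, against 6.37, 6.40 and 5.93 in labelled-control arches. The groups overlapped at signals above the array's median. Ifit2 and Ifit3 changed by 0.20 and -0.04, Mx2 by -0.03, Bst2 (tetherin, which holds budding virions at the cell surface) by 0.09, Xaf1 by 0.02, Trim30a by -0.07 and Ifi35 by -0.47. Adjusted p over these 7 and Rsad2, Ifit1 and Oasl2 was at least 0.296. The other probe sets of Ifi35 changed by 0.03 and 0.05, and the mean of its probe sets by -0.13 (limma, Benjamini-Hochberg adjusted p = 0.699).

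Of the 4 antigen presentation genes 2 fell. Psmb9, a catalytic subunit of the immunoproteasome, read 6.22, 6.08 and 6.05 in labelled-mutant arches, against 6.60, 6.90 and 6.98 in labelled-control arches, a fall by 0.71 (SE 0.11; limma, Benjamini-Hochberg adjusted p = 0.00801). Tap1, a chain of the transporter that loads peptides for MHC class I, read 6.48, 6.33 and 6.45 in labelled-mutant arches, against 6.79, 6.95 and 7.12 in labelled-control arches, a fall by 0.54 (SE 0.10; adjusted p = 0.0164). The groups did not overlap for either gene. The Tap1 call was lost without labelled-control array 2 (adjusted p = 0.0634), without labelled-mutant array 2 (0.0818) or 3 (0.0684), with the mean of its probe sets (a change of -0.11, 0.468) and with floored signals (0.0789), which also ended that of Psmb9 (0.0697). Psmb8, another immunoproteasome subunit, changed by -0.23 (adjusted p = 0.286). B2m, the light chain of MHC class I, read 10.19, 10.06 and 10.03 in labelled-mutant arches, against 10.11, 10.25 and 10.82 in labelled-control arches, and its change of -0.30 did not pass (adjusted p = 0.389). Labelled-control array 3 alone stood high for B2m.

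Psmb9 and Tap1 lie head to head on chromosome 17. Only 225 bases separate their annotated starts, and this stretch is shown because both genes that read out from it fell. It is given in the direction of Tap1 (plus strand, chr17:34187331-34187555, RefSeq, GRCm38.p6), with CpG in capitals.
Tap1: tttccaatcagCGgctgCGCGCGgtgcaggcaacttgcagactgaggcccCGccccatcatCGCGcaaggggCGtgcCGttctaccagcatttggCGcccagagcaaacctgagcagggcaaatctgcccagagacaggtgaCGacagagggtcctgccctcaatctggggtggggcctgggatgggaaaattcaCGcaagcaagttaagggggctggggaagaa
It holds 12 CpG. On the far side of Tap1 lies Psmb8, which did not pass.

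None of the 7 receptor and signalling genes passed with limma, and 0 did so at an unadjusted p of 0.05. Over all 18194 genes 4.3% were lower and 1.23% higher, and 3405 had an unadjusted p under 0.05. At such shares a count of 0 among 7 genes is not unusual. The receptor chain Ifnar1 read 8.62, 8.73 and 8.89 in labelled-mutant arches, against 8.71, 8.79 and 8.87 in labelled-control arches, and Ifnar2 changed by -0.04. The groups overlapped for both, and Ifnar1 lay above the 75th percentile of its array (8.17) in every arch. Stat2, which with Irf9 carries the signal to the nucleus, read 5.41, 5.28 and 5.22 in labelled-mutant arches, against 5.21, 5.59 and 5.98 in labelled-control arches. Its change of -0.29 rested on 2 of the 3 labelled-control arrays (adjusted p = 0.419). Irf9 changed by -0.01 and Irf3, which the sensors activate, by -0.10. Irf7, the amplifier of interferon production and itself an induced gene, read 4.36 ± 0.22 in labelled-mutant and 4.19 ± 0.09 in labelled-control arches, near the array's 25th percentile. Irf1 changed by 0.22 (adjusted p = 0.344).

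**Figure D2:**
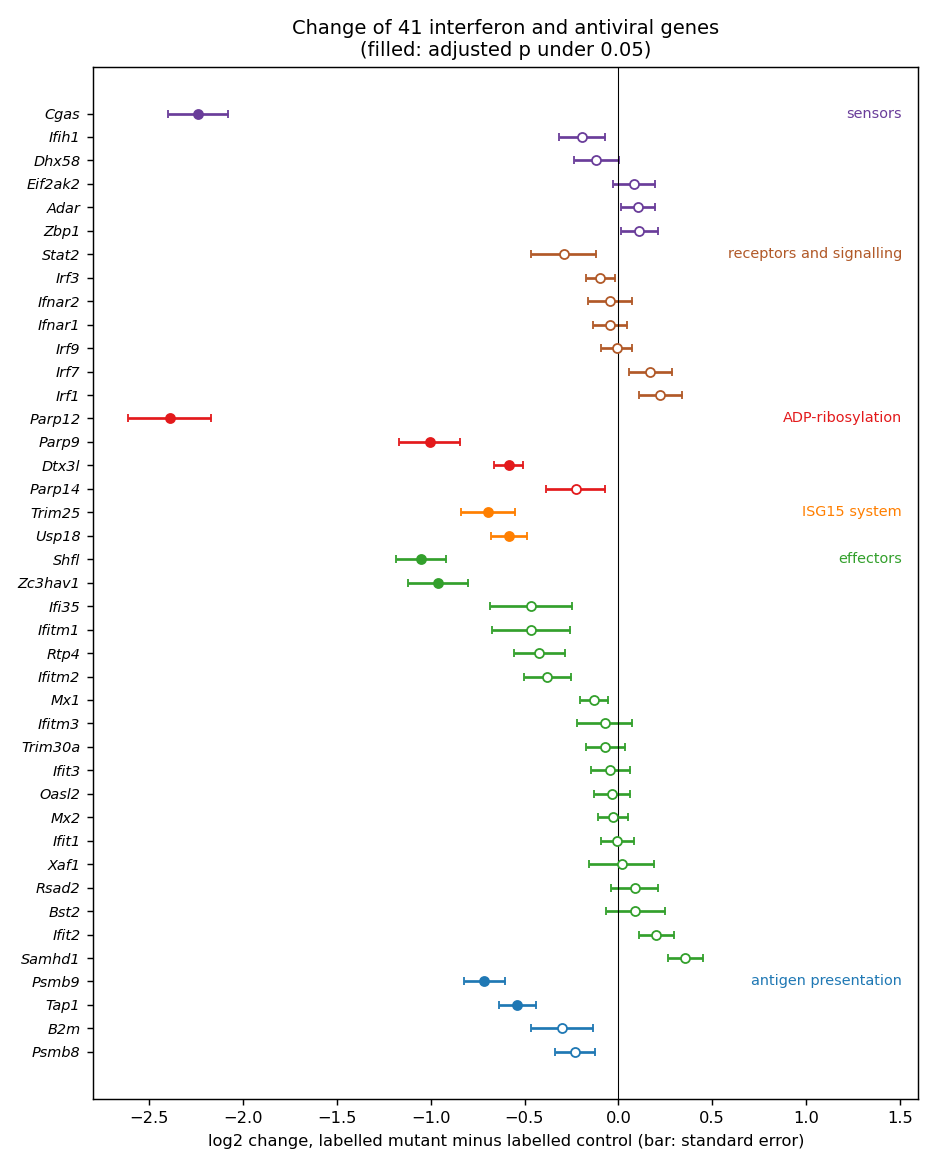
Change of all 41 measured genes in log2 units (labelled mutant minus labelled control, bars for standard error), grouped by role, with filled points for an adjusted p under 0.05. The filled points run from -2.39 for Parp12 to -0.54 for Tap1, and the open points from -0.47 to 0.36.

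The promoter windows of the members were searched for motifs of interferon signalling. The members were listed as genes of this pathway, so their share of such motifs is not independent of how the list was made. Windows of 300 bases, 250 before and 50 after an annotated start, were found in RefSeq (GRCm38.p6) for 34 of the 43 genes, with 40 windows in all, and not for Dhx58, Zbp1, Parp9, Parp14, Usp18, Mx1, Mx2, Shfl and Rtp4. The ISRE core, GAAA and GAAA with 2 bases of any kind between them on either strand (TTTC and TTTC on the other), stood in 13 of the 40 windows, from 12 genes, against 3.44% of the 32851 windows of all genes. The gamma-activated site TTCNNNGAA, which reads the same on both strands, stood in 11 of the 40 windows, against 8.3% of all windows, and it overlapped an ISRE core in Ifitm3 and Bst2. None of the 7 windows of genes that fell (Cgas, Parp12, Dtx3l, Tap1, Psmb9, Trim25 and Zc3hav1) held either motif. With 3.44% and 8.3% over all windows, such a count in 7 windows is not unusual. Of the 25 genes that did not pass and have a window, 11 held the ISRE core and the others did not. A match describes letters, and its absence says nothing about binding.

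Stretches of 70 bases around the ISRE cores of some genes that did not pass are shown as examples, picked because they hold the core. The cores are in capitals (RefSeq, GRCm38.p6). They lie at chr19:34640764-34640833 (plus) for Ifit1, chr19:34583360-34583429 (plus) for Ifit3, chr12:26456533-26456602 (minus) for Rsad2 and chr8:71537560-71537629 (minus) for Bst2.
Ifit1: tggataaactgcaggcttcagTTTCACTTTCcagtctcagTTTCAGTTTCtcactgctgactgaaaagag
Ifit3: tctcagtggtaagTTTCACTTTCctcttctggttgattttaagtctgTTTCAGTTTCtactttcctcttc
Rsad2: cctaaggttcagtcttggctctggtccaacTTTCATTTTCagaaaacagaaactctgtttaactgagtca
Bst2: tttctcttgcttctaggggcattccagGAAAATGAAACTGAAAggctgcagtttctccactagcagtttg
The 2 cores of Bst2 overlap each other. The first core begins 104 bases before the start of Ifit1, 156 before that of Ifit3, 120 before that of Rsad2 and 130 before that of Bst2.

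The windows also differed in CpG number, a measure chosen after the changes were seen. The 7 windows of genes that fell held 15 to 46 CpG (median 17), the 31 windows of genes that did not pass 0 to 43 (median 10), and windows of all genes had a median of 7. The ranges overlap, and the windows of Tap1 and Psmb9 share most of their bases. Ifit1, Ifit3 and Rsad2 held 4, 1 and 6 CpG, whereas Samhd1 and Ifnar1, which did not pass either, held 29 and 26.

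Probe sets of 1 gene did not always read alike. The 41 genes had 78 probe sets, and of 22 genes with several, 13 had changes of 1 sign and 9 of both. Of the 10 genes that fell 5 had more than 1 probe set. Both probe sets of Cgas (-2.24 and -1.56) and of Dtx3l (-0.58 and -0.83) were lower in labelled-mutant arches. Trim25 had changes of -0.69 and -0.84 on its 2 brighter probe sets and -0.08 on a dimmer one. Zc3hav1 had -0.96 on the probe set used, with -0.17 and 0.27 on the others. Tap1 had -0.54 on the probe set used, whereas its other 3 gave -0.03, 0.02 and 0.10 at mean signals of 3.17 to 5.01 in the groups. For Tap1 and Zc3hav1 the fall thus rests on 1 probe set, and Parp12, Parp9, Shfl, Usp18 and Psmb9 have only 1.

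**Figure D3:**
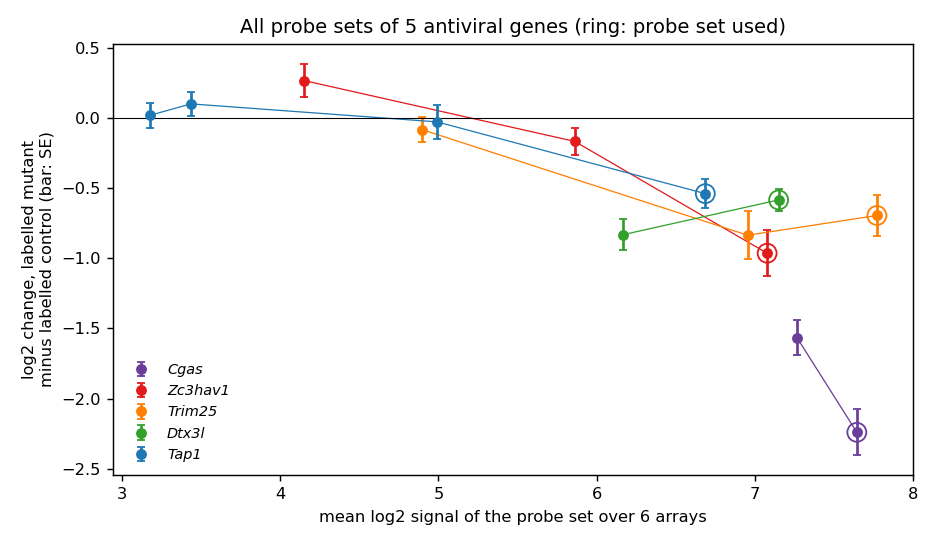
Change in log2 units (labelled mutant minus labelled control, bars for standard error) against mean signal over 6 arrays for every probe set of 5 genes that fell, lines joining probe sets of a gene and rings marking the one used. Cgas is lower on both, at -2.24 and -1.56, while the dimmer probe sets of Tap1 and Zc3hav1 lie between -0.17 and 0.27.

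Other genes of the pathway were listed by name, and most did not pass. Of 68 measured genes (7 more on the list were not analysed here), 4 fell, 0 rose and 64 did not pass, with a median change of -0.0048, against 4.3% of all genes lower and 1.23% higher. H2-D1, a class I heavy chain, read 7.32 ± 0.05 in labelled-mutant and 8.04 ± 0.37 in labelled-control arches, a fall by 0.72 (SE 0.16; limma, Benjamini-Hochberg adjusted p = 0.0389), and its probe sets may share signal with related class I genes. Nmi, a partner of Ifi35, fell by 0.59 (adjusted p = 0.0389), the interferon lambda receptor gene Ifnlr1 by 0.43 (0.0337) and Irf2, which competes with Irf1, by 0.37 (0.0431). The count was 0 without labelled-control array 2 and without labelled-mutant arrays 2 or 3, 1 without labelled-control array 3, 2 without labelled-mutant array 1, and 0 with floored signals. The mean of its probe sets gave H2-D1 a change of -0.20 and ended its call (adjusted p = 0.147).

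The partners of Cgas and of the receptors did not pass. Sting1, which the product of Cgas activates, read 6.83 ± 0.07 in labelled-mutant and 6.68 ± 0.20 in labelled-control arches (a change of 0.15; limma, Benjamini-Hochberg adjusted p = 0.526). Ddx58 (RIG-I) changed by 0.02, its adaptor gene Mavs by -0.08 and the endosomal RNA sensor gene Tlr3 by 0.12. The receptor kinases Jak1, Jak2 and Tyk2 changed by -0.24, -0.17 and 0.04, and the interferon gamma receptor chains Ifngr1 and Ifngr2 by -0.26 and -0.21. Adjusted p over these 9 genes was at least 0.192.

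Antiviral genes also varied between arrays of 1 label. Among the 31 genes that did not pass, labelled-control array 3 was the highest of its group for 18 (58.1%, against 41.4% of all genes) and labelled-control array 1 the lowest for 16 (51.6%, against 35.2%). The median deviation from the group mean was 0.09 on labelled-control array 3 and -0.06 on array 1, whereas over all genes these were 0.02 and 0.00. Ifitm1 read 8.78, 9.13 and 9.60 in the labelled-control arches, Ifi35 6.27, 6.53 and 7.15, and Bst2 5.91, 6.29 and 6.61, with array 3 the highest each time. In the labelled-mutant arches array 1 was the highest for 19 of the 31 (61.3%, against 43.3% of all genes).

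Markers of macrophages and leukocytes, cells in which many antiviral genes are active, varied between arrays in the same places. Of 16 markers labelled-control array 3 was the highest of its group for 12 and labelled-mutant array 1 the highest of its group for 12. This order was not particular to leukocytes. The summed signal of erythroid markers was also highest on labelled-mutant array 1 (56718) and labelled-control array 3 (65211). That of epithelial markers was highest on labelled-control array 3 (4862), but on labelled-mutant array 3 (4216). Endothelial and muscle sums were highest on labelled-mutant array 1 (2277 and 398), but on labelled-control array 2 (2437 and 700). That of crest mesenchyme was highest on labelled-mutant array 2 (24299) and labelled-control array 3 (23306). The summed linear signal of the 16 leukocyte markers was 1514 to 1834 in labelled-mutant and 1772 to 2401 in labelled-control arches, and the groups overlapped. Between groups 1 marker fell, 0 rose and 15 did not pass, with a median change of -0.15, where 4.3% of all genes were lower and 1.23% higher. Of the 16 changes 13 were negative and 3 positive, and the groups did not overlap for 6 markers, against 24.9% of all genes. Mrc1 had the largest change, -0.87, and narrowly missed the threshold (limma, Benjamini-Hochberg adjusted p = 0.0511). The marker that fell was Ptprc (CD45), at 5.79 ± 0.13 in labelled-mutant and 6.24 ± 0.15 in labelled-control arches (limma, Benjamini-Hochberg adjusted p = 0.0406). Its call was lost without any 1 of labelled-control arrays 1 (0.0644), 2 (0.0713) and 3 (0.0842) and labelled-mutant arrays 2 (0.168) and 3 (0.142), and with floored signals (0.118). The mean of its probe sets gave a change of -0.17 (0.28). Of the 16 markers Itgam alone was under the 25th percentile in all 6 arches. The part of these cells in the antiviral changes was not tested.

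**Figure D4:**
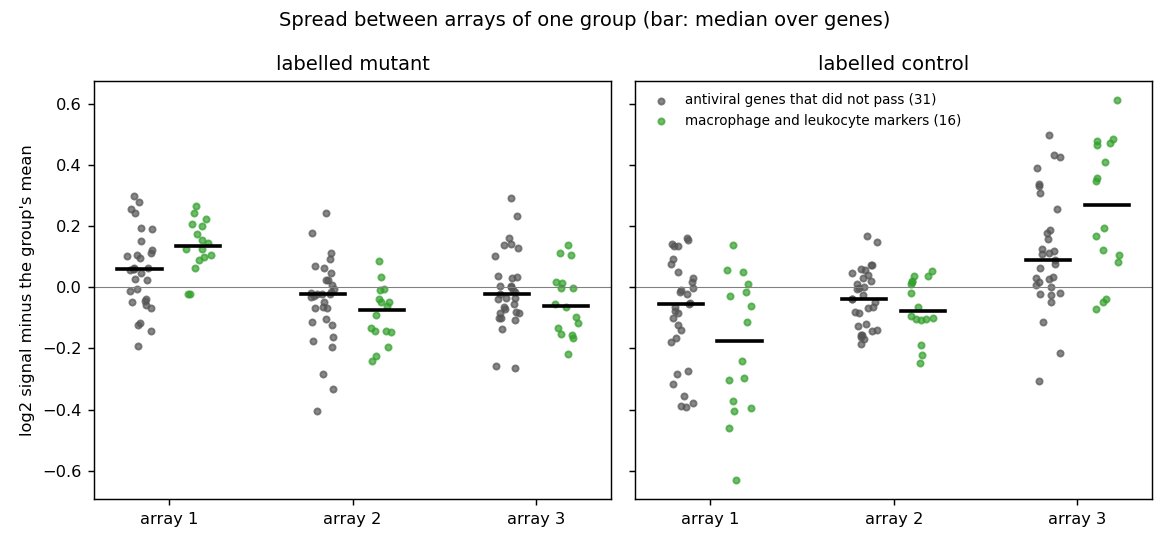
Log2 signal of each gene minus the mean of its group, for the 31 antiviral genes that did not pass (grey) and 16 macrophage and leukocyte markers (green), by array, with labelled-mutant arrays left and labelled-control arrays right and black bars for the median over genes. Both sets are highest on labelled-mutant array 1 (medians 0.06 and 0.14) and on labelled-control array 3 (medians 0.09 and 0.27).

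Markers of other arch cells gave the following beside the antiviral changes, where 4.3% of all genes were lower and 1.23% higher. Of 9 endothelial markers 0 passed with limma (0 at an unadjusted p of 0.05), with summed linear signals of 2111 to 2277 in labelled-mutant and 1962 to 2437 in labelled-control arches. Of 7 erythroid markers 1 fell and 6 did not pass, at sums of 51948 to 56718 in labelled-mutant and 54957 to 65211 in labelled-control arches. Of 6 epithelial markers 1 rose and 5 did not pass, at sums of 4126 to 4216 in labelled-mutant and 3413 to 4862 in labelled-control arches. Of 12 markers of crest mesenchyme 5 rose (Dlx2, Dlx5, Msx1, Msx2 and Hand2), 2 fell (Twist2 and Pdgfra) and 5 did not pass, at sums of 22566 to 24299 in labelled-mutant and 21151 to 23306 in labelled-control arches. Of 3 muscle markers 2 fell, at sums of 215 to 398 in labelled-mutant and 566 to 700 in labelled-control arches, the 1 set of sums among these 6 marker lists, leukocytes included, whose groups did not overlap. The summed signal of the 41 antiviral genes was 7522 to 8310 in labelled-mutant and 8971 to 10524 in labelled-control arches. Bright genes weigh most in such a sum, so it does not describe the list as a whole. Among them Ifitm2 (10.20 in labelled-mutant and 10.58 in labelled-control arches) and B2m (10.09 and 10.39) did not pass. The part of any of these cells was not tested.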

How the data were processed

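The authors deposited 1 processed signal per probe set and array, taken here as log2 because of its range. The background correction, summary method and software were not given in the sources used here. All 6 arrays share their quantiles, which hides any change common to most genes. Of 45101 probe sets, 34958 had exactly 1 gene symbol in the platform annotation of 2016 and 34754 of these matched RefSeq (GRCm38.p6) by Entrez identifier. Those with several symbols or none were left out. Each of 18194 genes was read from its brightest probe set, and all were fitted with limma 3.58.1 (lmFit, eBayes; R 4.3.3), two-sided, with Benjamini-Hochberg adjustment over all of them. No dim gene was left out. The fit was tested on simulated data. P-values set each difference between the labels against the spread between biological replicates, which eBayes moderates over all genes. The number of arrays limits precision. Members and lists were chosen with earlier results of these data known. All members were named, with pathway genes past the threshold and fixed lists of signalling genes, check genes and cell type markers. Alternatives were a replicate block, quantile normalization, median centring, floored signals, leaving out dim genes, the mean of probe sets, trend with robust settings, and leaving out each array.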

Additional observations from a re-analysis of the deposited data

How the results depend on the processing

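Of 13 alternatives, trend with robust settings and leaving out dim genes left the 10 antiviral genes that fell at 10. Quantile normalization and centring on the median did so too, but the arrays already shared their quantiles, so neither could alter much. The mean of probe sets gave 8. With lower signals raised to the 20th percentile of their array 4 passed (Cgas, Parp12, Dtx3l and Usp18), of 329 genes in all (99 higher) against 1007 (224 higher), and 0 of the other pathway genes. The floor left the signals of the other 6 as they were, as it did those of Cgas, Parp12 and Dtx3l. Among the 10 it altered Usp18 alone, from -0.58 to -0.51. The 6 calls were thus lost in the fit over all genes rather than through the genes' own signals. Leaving out 1 array gave 7 to 11 antiviral genes, of which 0 to 1 were higher, 0 to 6 other pathway genes, 435 to 1021 genes in all (63 to 244 higher) and a median antiviral change of -0.17 to -0.08. Cgas, Parp12 and Dtx3l passed under all 13, quantile normalization and centring on the median included. The median was -0.21 over the 36 antiviral genes left without dim genes, where the set of genes itself differs. The replicate numbers did not pair the arrays: deviations of same-numbered arrays correlated at -0.211, -0.122 and -0.0661. With a replicate block 9 antiviral genes passed (Trim25 did not, adjusted p = 0.083), and 657 genes in all (112 higher). The block count of other pathway genes was 1, Gbp7, named after its value was seen, and none of the 4 that fell without the block: H2-D1 (0.0549), Ifnlr1 (0.0666), Nmi (0.0844) and Irf2 (0.124) missed the threshold. Ptprc (0.0645) missed it too, and Samhd1 had 0.14.

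Small changes that did not pass turned sign: with such floored signals Ifit1 (0.0083), Oasl2 (0.0007) and Xaf1 (-0.023), and with the mean of probe sets Parp14 (0.0237), Xaf1 (-0.0568) and Ddx58 (-0.0228). Leaving out 1 array gave ranges across 0 for Dhx58 (-0.197 to 0.0103), Eif2ak2 (-0.0388 to 0.155), Ifnar1 (-0.114 to 0.0183), Ifnar2 (-0.181 to 0.0287), Irf9 (-0.0412 to 0.0478), Ifit1 (-0.056 to 0.057), Ifit3 (-0.106 to 0.0525), Oasl2 (-0.0945 to 0.0605), Rsad2 (-0.0663 to 0.171), Mx2 (-0.0622 to 0.0142), Trim30a (-0.163 to 0.0087), Bst2 (-0.0872 to 0.26), Ifitm3 (-0.161 to 0.0935), Xaf1 (-0.141 to 0.171), Tyk2 (-0.006 to 0.101), Ddx58 (-0.0433 to 0.0702) and Ezh2 (-0.0233 to 0.117). The cause was not tested.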
